A study of Mus musculus with 14 samples.

Results

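Xenobiotic metabolism enzymes of the mouse lung were followed from the embryo to the adult as a set of 39 genes named by symbol, of which 38 had a probe set under that symbol in the array annotation. Por, the reductase that passes electrons to P450 enzymes, was not analysed here. The 38 genes are 10 P450 enzymes, 3 flavin monooxygenases, 11 glutathione transferases and 14 other enzymes, out of 18193 genes with a probe set of a single symbol. Each gene is given by 1 probe set, the one that was brightest on average across the 14 arrays. The lungs were those of ICR mice, an outbred strain with no treatment named, and were measured on 14 Affymetrix oligonucleotide arrays, 2 at each of 7 time points. These were E12, E14, E16 and E18 before birth, P2 and P10 after it, and Adult (postnatal day 30). E stands for embryonic day, with the day of the vaginal plug as day 0, and P for postnatal day. Each RNA came from pooled whole lungs, and the labels give every array as female. The sources used here give neither the number of lungs in a pool nor whether the replicates were separate pools, so each p-value measures only the spread between these arrays, which may be technical.

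Enzymes of xenobiotic metabolism turn foreign, mostly fat-soluble compounds into forms that can be excreted. In the first phase P450 enzymes and flavin monooxygenases add oxygen to a compound, and esterases, epoxide hydrolases, and alcohol and aldehyde oxidising enzymes change it further. In the next phase transferases attach glutathione, sulfate or a methyl group. The liver is the main site, while the lung, which meets inhaled compounds directly, holds its own set, much of it in club cells of the bronchioles and in alveolar type II cells.

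Values are log2 signal as deposited, so that 1 unit is a doubling of signal. They ran from 2.53 to 14.99 over all arrays, with array medians between 6.55 and 6.62. Because each probe set binds with its own strength, levels were compared between time points and not between genes. The median SD between replicates was 0.13 over the 38 enzyme genes and 0.11 over probe sets with a highest time-point mean above 7. Every array lay nearest to its own replicate, with correlations across probe sets between 0.9953 and 0.9977. The Y-linked genes went against the female label in most arrays. Eif2s3y, a translation factor gene on the Y chromosome, was between 6.95 and 8.61 in 11 arrays and between 2.86 and 3.60 in the other 3, which were E16 replicate 2 and both Adult arrays. The 3 Y-linked genes named in the annotation, of 4 listed, summed to between 8.29 and 9.59 in the 11 arrays and to between 5.33 and 5.89 in the 3. Adult age and the low Y-linked signal therefore cannot be told apart in any comparison with Adult below. At E16 both kinds of array were present, and the replicates differed by more than 1.2 in 1 enzyme gene, Inmt. Their median absolute difference was 0.15 over the enzyme genes against 0.11 over all genes. The E16 replicates also differed in heart markers, so the Y-linked signal is not their only difference. Myl2, a heart gene, read 12.63 in replicate 1 and 8.84 in replicate 2. Of the thymus markers, Rag1 read 5.80 and 3.23, but the others were closer. Cd3e read 7.18 and 7.13, Themis 5.84 and 5.57, and Dntt 6.01 and 6.02.

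**Figure D1:**
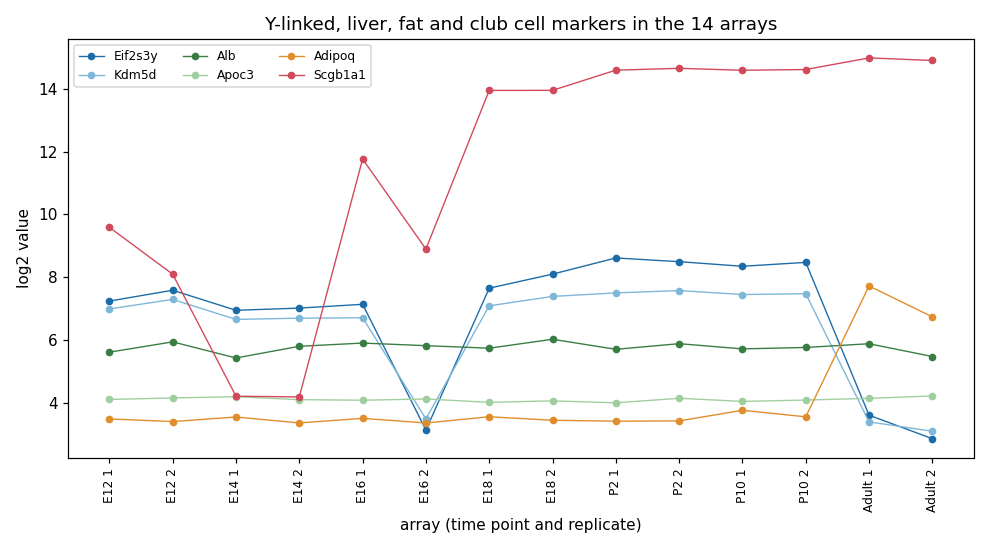
Log2 value (y axis) of marker genes in the 14 arrays in time order (x axis, time point and replicate): Eif2s3y and Kdm5d (Y-linked), Alb and Apoc3 (liver), Adipoq (fat) and Scgb1a1 (club cells), with lines joining the arrays. The Y-linked genes are low in E16 replicate 2 and both Adult arrays, the liver genes run level, and Adipoq is raised in the Adult arrays.

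Most of the enzyme genes changed over the time course, and 26 of the 38 were higher in Adult than at E12. A gene was called dynamic when limma's F test over the 7 time points gave an adjusted p (Benjamini-Hochberg over 45037 probe sets) under 0.05, its highest time-point mean (Max) was above 7 and the distance between its highest and lowest mean (Range) was above 1.2. This held for 31 of the 38 (81.6%), against 26.7% of all genes. Of the other 7, Cyp2j6, Cyp3a13 and Ephx2 had no mean above 7, whereas Gsta4, Mgst3, Adh7 and Nqo1 had a Range of 1.2 or less. For a pair of time points, a call needed a difference of more than 1.2, the same limit on the adjusted p, and a mean above 7 in whichever time point was higher. In Adult against E12 the 26 higher genes (68.4%) stand against 11.5% of all genes, and 1 gene was lower (2.63%), against 9.84%. The median difference was 3.14 over the 38 enzyme genes and 0.08 over all genes. These genes were chosen with results of the same arrays known, so the shares describe the set and are no independent evidence about it. Without the Adult arrays 26 enzyme genes were dynamic, and without the 3 arrays low in Y-linked genes also 26. The same 5 genes dropped out in both cases, namely Cyp1b1, Fmo5, Gsto1, Gstp1 and Sult1d1. Both cases leave out the Adult arrays, so they are not separate checks.

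**Figure D2:**
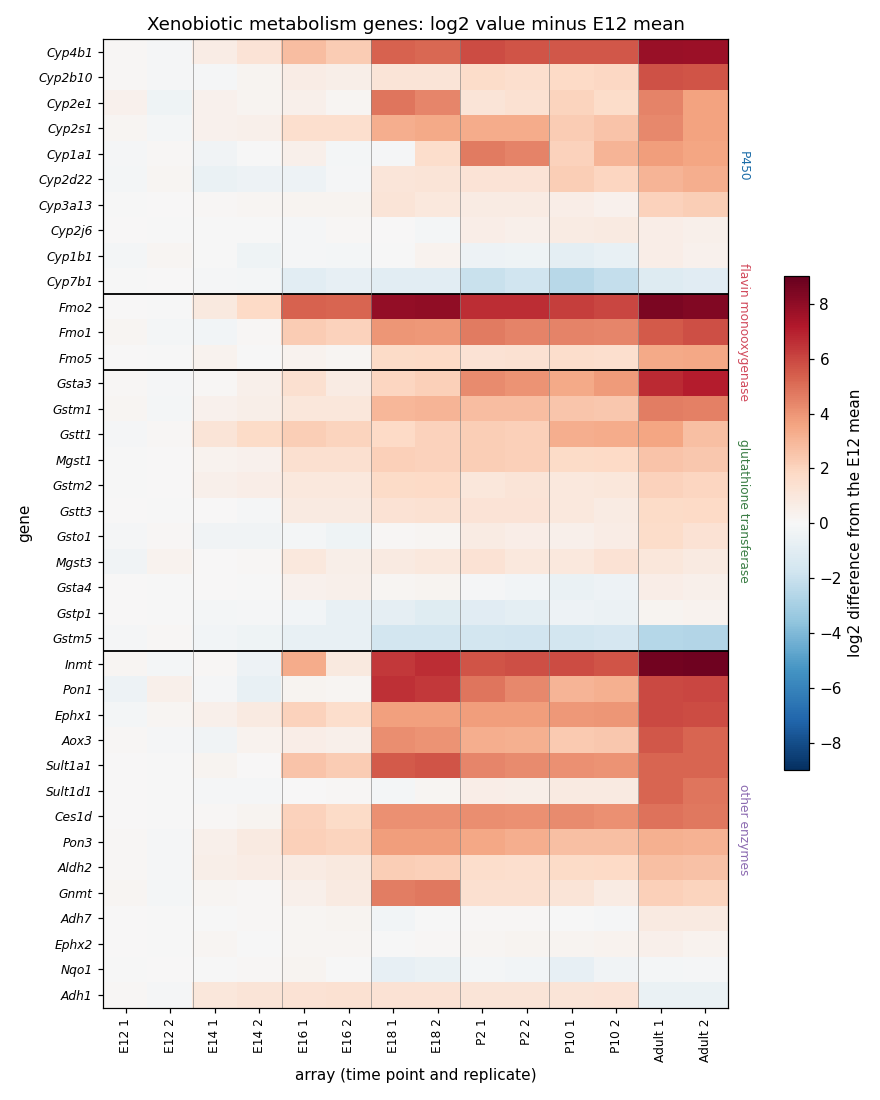
Log2 value minus the gene's E12 mean (colour) for the 38 enzyme genes (rows, grouped by class and ordered by the difference between Adult and E12) in the 14 arrays (columns, in time order). Red is above and blue below the E12 mean, and most rows are red at E18 and in Adult.

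Class medians of the distance from E12 were read at each time point, and they need not follow the steps of single genes. Over the flavin monooxygenases the median step in P2 against E18 was -0.42. Over the P450 genes the median step in P10 against P2 was -0.23, although both class medians below go up there. Over the 3 flavin monooxygenases the median distance from E12 was 0.16 for E14, 2.17 for E16, 3.93 for E18, 4.58 for P2, 4.44 for P10 and 5.68 for Adult. Over the 10 P450 genes it was 0.01 for E14, 0.19 for E16, 1.09 for E18, 1.25 for P2, 1.83 for P10 and 3.40 for Adult. Over the 14 other enzymes the median was already at 3.70 at E18, was lower at P2 (2.39) and P10 (2.08), and was 4.0 in Adult. Over the 11 glutathione transferases the median was 1.36 at E18, above that of the P450 genes, and 1.75 in Adult, the lowest of the 4 classes. Genes within a class were spread widely, from -1.11 to 7.72 among P450 genes and from -2.60 to 6.89 among glutathione transferases in Adult against E12, and differences between the classes were not tested. In bulk lung RNA, fewer cells of a type and less RNA per cell cannot be told apart.

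**Figure D3:**
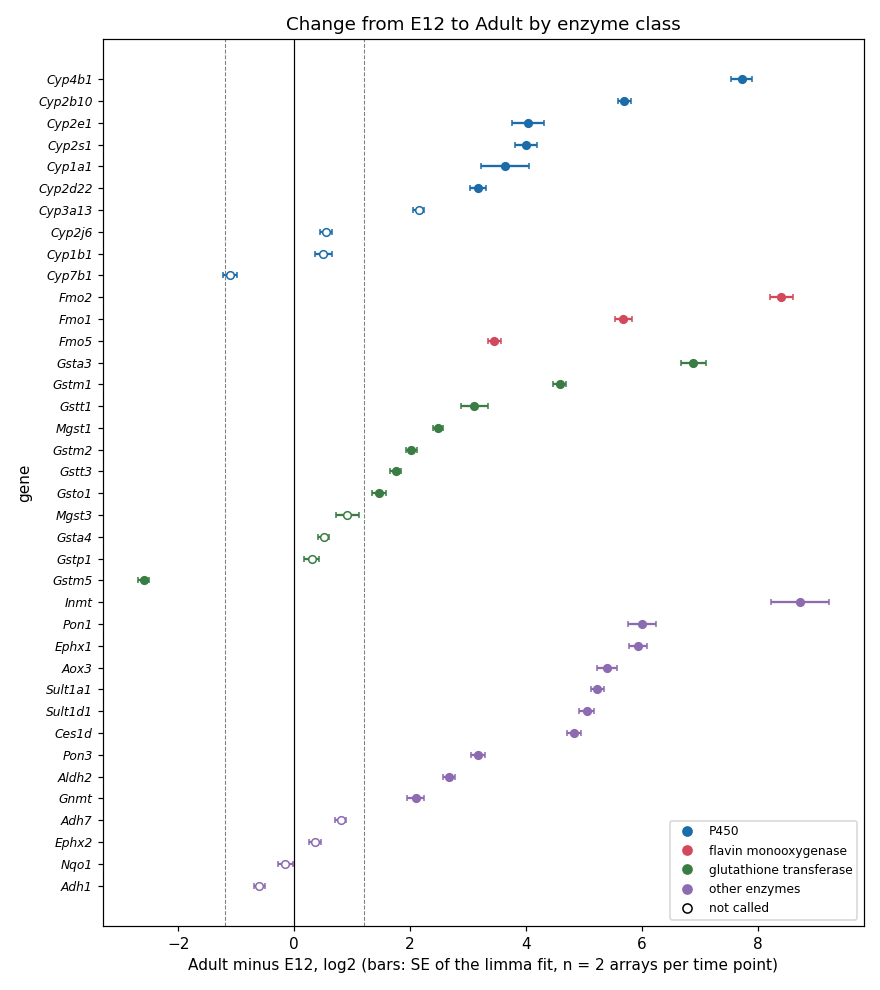
Difference between Adult and E12 in log2 (x axis) for each of the 38 enzyme genes (y axis), coloured by class, with bars for the SE of the limma fit (n = 2 arrays per time point). Filled points were called, open points were not, and dashed lines mark a difference of 1.2 in either direction; Inmt and Fmo2 lie farthest to the right and Gstm5 farthest to the left.

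Among the P450 genes, 8 of 10 were dynamic, and 6 were higher and 0 lower in Adult against E12. Cyp4b1, a P450 of lung epithelium that oxidises fatty acids and small furans, had log2 values of 13.20 and 13.10 in Adult lungs against 5.55 and 5.31 at E12. The difference was 7.72 (SE 0.18, adjusted p = 1.22e-12), a 211-fold change in signal. It went up in several steps, with arrays at 6.06 and 6.69 at E14, 8.18 and 7.73 at E16, 10.77 and 10.62 at E18, 11.27 and 11.12 at P2 and 11.03 and 10.99 at P10. Steps were called in E16 against E14 (1.58), E18 against E16 (2.74) and Adult against P10 (2.14), so that the gene was nearly level from E18 to P10. Cyp2b10, the phenobarbital-inducible mouse P450, had its largest step late. Its arrays read 12.07 and 12.05 in Adult and 8.13 and 8.23 at P10, a difference of 3.88 (SE 0.11, adjusted p = 3.4e-10). Between E12 (6.45 and 6.28) and P10 no single step of this gene was called, though its mean went from 6.37 to 8.18. The 2 other probe sets of Cyp2b10 showed larger differences between Adult and E12 (8.39 and 8.12, against 5.69 for the one used). Their means already went from 4.32 to 7.85 and from 4.10 to 7.44 between E12 and P10. Both are of a type that can bind transcripts of related genes.

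Cyp1a1 had a course of its own. The gene encodes the P450 that oxidises polycyclic aromatic hydrocarbons and is the classical target of the aryl hydrocarbon receptor. Its log2 values were 4.63 and 4.81 at E12, 4.43 and 4.68 at E14, 5.18 and 4.55 at E16, 4.62 and 6.30 at E18, 9.41 and 9.15 at P2, 6.80 and 7.78 at P10 and 8.45 and 8.26 in Adult. Before birth only E18 replicate 2 was above 5.2, and both P2 arrays lay above all others. P2 exceeded E18 by 3.82 (SE 0.42, adjusted p = 4.39e-05), a 14.1-fold change and the highest value of that difference among the 18193 genes. P10 fell by 1.99 on the log2 scale (SE 0.42, adjusted p = 0.0113) relative to P2, a call that was lost without P2 replicate 1 (adjusted p = 0.103), without P2 replicate 2 (adjusted p = 0.0528) or without P10 replicate 1 (adjusted p = 0.0931). Its close relative Cyp1b1, which oxidises many of the same hydrocarbons and oestradiol, read 6.45 and 6.49 at P2 against 6.83 and 7.19 at E18 and was not called at that step. Cyp1b1 was called only in Adult against P10, by 1.27 (SE 0.15, adjusted p = 3.73e-05). Ahr, the receptor gene itself, was higher in Adult than at E12 by 2.72 (SE 0.10, adjusted p = 3.75e-11), and its difference between P2 and E18 was -0.08 (adjusted p = 0.687).

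The stretches just upstream of Cyp1a1 and Cyp2b10 are shown because these P450 genes had the largest steps at birth and between P10 and Adult. They are RefSeq windows of assembly GRCm38.p6 running 5′ to 3′ along the gene, from 250 bases before to 50 after the start, at chr9:57697363-57697662, plus strand, and chr7:25897408-25897707, plus strand. Capitals mark GCGTG, the core of the element bound by the aryl hydrocarbon receptor, or its reverse complement CACGC.
Cyp1a1: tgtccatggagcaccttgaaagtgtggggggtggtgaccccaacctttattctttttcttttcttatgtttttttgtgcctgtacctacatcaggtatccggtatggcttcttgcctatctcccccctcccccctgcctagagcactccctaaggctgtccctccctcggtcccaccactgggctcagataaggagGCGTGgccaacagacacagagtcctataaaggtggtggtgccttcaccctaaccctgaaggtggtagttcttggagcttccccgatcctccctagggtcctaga
Cyp2b10: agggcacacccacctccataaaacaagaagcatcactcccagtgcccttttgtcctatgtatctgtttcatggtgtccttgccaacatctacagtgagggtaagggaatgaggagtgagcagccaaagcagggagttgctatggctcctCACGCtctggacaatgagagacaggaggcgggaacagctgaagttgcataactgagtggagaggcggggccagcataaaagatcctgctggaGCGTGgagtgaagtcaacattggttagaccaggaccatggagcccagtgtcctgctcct
The match in the Cyp1a1 window begins 54 bases before the start. In the Cyp2b10 window the matches begin 101 and 9 bases before it. This core was found in 32.4% of all 32851 promoter windows and in 12 of the 35 windows of the enzyme genes, which stand for 11 of the 31 genes with a window, Cyp1b1 among them. A match describes the letters only.

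Of the remaining P450 genes, Cyp2e1, which oxidises ethanol and small solvents, peaked before birth. Its arrays read 5.28 and 4.96 at E16, 9.59 and 9.21 at E18, 5.93 and 6.19 at P2, 6.81 and 6.45 at P10 and 9.24 and 8.41 in Adult. E18 was above E16 by 4.28 (SE 0.27, adjusted p = 3.81e-08), and P2 fell by 3.34 on the log2 scale (SE 0.27, adjusted p = 3.23e-06) relative to E18. The arrays of E16 and P2 all lay below those of E18. Cyp2s1, a P450 of epithelia, and Cyp2d22, a mouse Cyp2d enzyme, were higher in Adult than at E12 by 3.99 (SE 0.19, adjusted p = 4.05e-10) and 3.17 (SE 0.14, adjusted p = 2.02e-10). Cyp7b1, an oxysterol hydroxylase, ran the other way for most of the course, with 8.83 and 8.87 at E12 and 6.35 and 6.71 at P10, and was above its P10 level in Adult by 1.21 (SE 0.12, adjusted p = 7.2e-06). Adult against E12 differed by -1.11 (SE 0.12, adjusted p = 2.32e-06) for Cyp7b1, which is under the minimum of 1.2. Cyp3a13, of the drug-oxidising Cyp3a family, had a difference of 2.14 (SE 0.10, adjusted p = 3e-10) but no mean above 7, and Cyp2j6, of a family that oxidises arachidonic acid, stayed between 5.79 and 6.75 in every array.

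All 3 flavin monooxygenases were dynamic and higher in Adult than at E12. These enzymes oxidise nitrogen and sulfur atoms of drugs and toxins, and Fmo2 is the form typical of lung. Fmo2 read 5.02 and 4.91 at E12, 5.87 and 6.74 at E14, 10.29 and 10.18 at E16, 12.90 and 12.94 at E18, 11.60 and 11.64 at P2, 11.19 and 10.98 at P10 and 13.42 and 13.33 in Adult. In E14 against E12 Fmo2 differed by 1.34 (SE 0.19, adjusted p = 0.00199), which was not called because neither mean was above 7. It was called higher in E16 against E14, by 3.93 (SE 0.19, adjusted p = 6.56e-08), and again by 2.68 (SE 0.19, adjusted p = 1.4e-07) in E18 against E16. After birth Fmo2 fell by 1.30 on the log2 scale (SE 0.19, adjusted p = 0.000512) in P2 against E18, and Adult exceeded P10 by 2.29 (SE 0.19, adjusted p = 1.46e-06). Fmo1, its neighbour on the chromosome, read 6.81 and 6.51 at E12, 6.4 and 6.76 at E14, 8.94 and 8.73 at E16, 10.66 and 10.53 at E18, 11.37 and 11.12 at P2, 11.14 and 11.07 at P10 and 12.20 and 12.49 in Adult. Like Fmo2 it was called in E16 against E14, by 2.26 (SE 0.15, adjusted p = 7.21e-07). In P2 against E18 the Fmo1 difference was 0.65 (95% confidence interval 0.32 to 0.97), which was not called, and it was positive where that of Fmo2 was negative. Fmo5, which in humans oxidises ketones, read 4.76 and 4.71 at E12, 5.06 and 4.92 at E16, 6.46 and 6.51 at E18, 6.28 and 6.22 at P10 and 8.16 and 8.21 in Adult. Only its Adult mean was above 7, and Adult exceeded P10 by 1.94 (SE 0.11, adjusted p = 4.94e-08). Its probe set is of a type that can bind transcripts of related genes. The 1 other Fmo gene named in the annotation had no mean above 7.

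Glutathione transferases split into a gene that climbed steeply, a group that moved moderately, and others that stayed level or went down. Gsta3, the alpha-class enzyme that in mouse detoxifies aflatoxin epoxide, had arrays at 4.54 and 4.40 at E12, 4.61 and 4.93 at E14, 5.90 and 5.18 at E16, 6.38 and 6.63 at E18, 8.74 and 8.5 at P2, 7.85 and 8.31 at P10 and 11.20 and 11.52 in Adult. It was called at birth, with 2.11 (SE 0.22, adjusted p = 2.79e-05) in P2 against E18, and again in Adult against P10 with 3.28 (SE 0.22, adjusted p = 1.68e-07). The other probe set of Gsta3 was dimmer and moved little at birth, with means of 4.04 at E18 and 4.66 at P2. Its means were 4.42 at P10 and 8.48 in Adult. Gsta4, of the same class and specific for lipid aldehydes such as hydroxynonenal, stayed between 10.09 and 11.26 in all arrays. Adult minus E12 was 0.51 (95% confidence interval 0.30 to 0.72) for Gsta4. The promoter window of Gsta3 at chr1:21240335-21240634, plus strand (RefSeq, GRCm38.p6, 5′ to 3′ along the gene) is given because its gene had the largest change of the class. Capitals mark a match to TGACNNNGC, the antioxidant response element, which begins 121 bases before the start.
Gsta3: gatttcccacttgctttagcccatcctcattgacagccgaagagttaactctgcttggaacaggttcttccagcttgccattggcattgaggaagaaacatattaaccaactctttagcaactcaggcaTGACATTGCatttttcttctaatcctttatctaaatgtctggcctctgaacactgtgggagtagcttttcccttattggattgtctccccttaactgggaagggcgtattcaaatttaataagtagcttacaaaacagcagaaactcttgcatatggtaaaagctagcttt
That motif was found in 12.4% of all 32851 windows and in 5 of the 35 windows of enzyme genes, those of Cyp2j6, Gsta3, Gstm5, Mgst1 and Pon3. Gsta3 holds no GCGTG core in its window.

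In the mu class, close relatives moved in opposite directions. Gstm5 read 8.98 and 8.88 in Adult against 11.44 and 11.63 at E12 and was the 1 enzyme gene called lower, with a difference of -2.60 (SE 0.10, adjusted p = 4.98e-11). Gstm1 read 12.52 and 12.42 in Adult against 8.05 and 7.72 at E12, a difference of 4.58 (SE 0.11, adjusted p = 1.42e-12). At E18 both were between their E12 and Adult levels, since Gstm1 was at 10.86 and 10.96 and Gstm5 at 9.91 and 9.89. Gstm2, adjacent to Gstm1 on chromosome 3, read 11.29 and 11.15 in Adult against 9.16 and 9.23 at E12, a difference of 2.02 (SE 0.09, adjusted p = 2.46e-10). The Gstm genes are similar in sequence and the probe set of Gstm1 is of a type that can bind transcripts of related genes. The 3 other probe sets of Gstm1 had differences of 4.71, 2.91 and 2.33 between Adult and E12. In E18 against E16, Gstm1 was called (2.02) and Gstm2 was not (0.84), and the difference between these genes was not tested.

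In the theta class, Gstt1 was the 1 enzyme gene called in E14 against E12, with arrays at 7.70 and 8.27 at E14 against 6.48 and 6.63 at E12. The difference of 1.43 (SE 0.23, adjusted p = 0.00377) was not called without E14 replicate 2 (1.15, adjusted p = 0.0664). Gstt1 was highest at P10 (9.82 and 9.90), and its Adult arrays, 10.09 and 9.24, spanned that level. Gstt3, next to Gstt1 on chromosome 10, read 7.31 and 7.21 at E14 and 7.32 and 7.26 at E12, and was highest in Adult (9.01 and 9.07), with 1.75 (SE 0.09, adjusted p = 1.43e-09) in Adult against E12. Mgst1, the microsomal enzyme that also reduces lipid peroxides, was higher in Adult than at E12 by 2.48 (SE 0.09, adjusted p = 3.13e-11), and Gsto1, of the omega class, by 1.47 (SE 0.12, adjusted p = 1.16e-07). Gstp1, the pi-class enzyme, was at 11.85 and 11.56 at E18 and at 12.94 and 12.98 in Adult, a difference of 1.26 (SE 0.13, adjusted p = 4.42e-06) from E18. In Adult against E12 the Gstp1 difference was 0.30 (95% confidence interval 0.03 to 0.57, not adjusted). The adjusted p of 0.0545 was above the limit of 0.05. With quantile normalization the difference was 0.40 (adjusted p = 0.0211), still under the minimum of 1.2. Mgst3 had its highest mean at P2 (9.75 and 9.42), with P10 (9.40 and 9.75) nearly level with it, and its Range was below 1.2.

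Among the 14 other enzymes, 10 were higher and 0 lower in Adult against E12. Those that oxidise or hydrolyse compounds included Ephx1, microsomal epoxide hydrolase, with 11.62 and 11.54 in Adult against 5.5 and 5.82 at E12, a difference of 5.93 (SE 0.15, adjusted p = 2.27e-12). Ephx2, the soluble epoxide hydrolase, stayed between 6.0 and 6.47 in all arrays. Ces1d, a carboxylesterase, was higher in Adult by 4.83 (SE 0.12, adjusted p = 1.69e-12) and had most of that change by E18, with 11.65 and 11.65 at E18 against 9.64 and 9.28 at E16. Aldh2, the mitochondrial enzyme that clears acetaldehyde, was higher in Adult than at E12 by 2.67 (SE 0.10, adjusted p = 6.04e-11). Aox3, an aldehyde oxidase, read 6.02 and 5.90 at E16, 9.62 and 9.48 at E18, 8.70 and 8.62 at P2, 7.79 and 7.82 at P10 and 11.01 and 10.66 in Adult. It was called higher at 2 steps, by 3.59 (SE 0.17, adjusted p = 3.61e-09) in E18 against E16 and by 3.02 (SE 0.17, adjusted p = 4.71e-08) in Adult against P10, with lower values between.

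Adh1 and Adh7, adjacent alcohol dehydrogenase genes on chromosome 3 that also oxidise retinol, did not move together. Adh1 had arrays at 12.19 and 12.04 at E12, from 13.10 to 13.47 at E14, E16, E18, P2 and P10, and 11.53 and 11.49 in Adult. Adult fell by 1.81 on the log2 scale (SE 0.09, adjusted p = 2.02e-08) relative to P10, while E14 was above E12 by 1.07 (SE 0.09, adjusted p = 6.66e-05), under the minimum of 1.2. Adh7 was between 6.09 and 6.52 in all arrays before Adult and at 7.13 and 7.10 in Adult, a difference of 0.86 (SE 0.09, adjusted p = 1.3e-05) from P10 that was also under the minimum. Nqo1, the quinone reductase that is a standard target of the oxidant-sensing factor Nrf2, ranged from 6.71 to 7.67 with a difference of -0.15 (95% confidence interval -0.43 to 0.12) in Adult against E12.

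Pon1, Gnmt and Sult1a1 were highest at E18, as was Pon3. Pon1, paraoxonase 1, which hydrolyses lactones and organophosphates and is known as a liver product carried on high-density lipoprotein, read 5.21 and 5.18 at E16, 11.59 and 11.37 at E18, 9.79 and 9.29 at P2, 8.09 and 8.23 at P10 and 10.96 and 11.04 in Adult. The difference of 6.29 (SE 0.25, adjusted p = 8.59e-10) in E18 against E16 was the highest of that step among the 18193 genes. Pon1 then fell by 1.94 on the log2 scale (SE 0.25, adjusted p = 0.000147) in P2 against E18 and by 1.39 on the log2 scale (SE 0.25, adjusted p = 0.00418) in P10 against P2, and was above P10 in Adult by 2.85 (SE 0.25, adjusted p = 1.74e-06). The call in P10 against P2 was lost without P2 replicate 1. Pon3, its neighbour on chromosome 6, was called at an earlier step, with 6.90 and 7.22 at E14, 8.56 and 8.41 at E16, 10.15 and 10.16 at E18, 9.09 and 9.11 at P10 and 9.62 and 9.54 in Adult. It was called in E16 against E14 by 1.43 (SE 0.12, adjusted p = 6.18e-06), where Pon1 differed by 0.59 (95% confidence interval 0.06 to 1.12). Both genes were above E12 in Adult, Pon1 by 6.0 and Pon3 by 3.17.

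Gnmt, glycine N-methyltransferase, which uses up the methyl donor S-adenosylmethionine and is abundant in liver, had its highest values at E18. It read 6.03 and 6.36 at E16, 10.17 and 10.31 at E18, 7.05 and 7.00 at P2, 6.74 and 6.35 at P10 and 7.76 and 7.60 in Adult. E18 exceeded E16 by 4.04 (SE 0.15, adjusted p = 6.56e-10), P2 fell by 3.21 on the log2 scale (SE 0.15, adjusted p = 3.7e-08) relative to E18, and Adult fell by 2.55 on the log2 scale (SE 0.15, adjusted p = 3.3e-08) relative to E18. Its promoter window, at chr17:46729116-46729415, minus strand (RefSeq, GRCm38.p6), is given because it held 3 matches to the GCGTG core (capitals), beginning 85 and 16 bases before the start and once after it.
Gnmt: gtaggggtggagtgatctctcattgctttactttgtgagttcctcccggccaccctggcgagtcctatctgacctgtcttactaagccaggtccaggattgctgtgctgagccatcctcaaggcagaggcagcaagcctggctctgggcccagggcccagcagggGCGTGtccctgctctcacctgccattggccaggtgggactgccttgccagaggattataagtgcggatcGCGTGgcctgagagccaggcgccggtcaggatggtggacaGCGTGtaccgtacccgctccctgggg
Pon1 and Cyp2e1, which shared the E18 level of Gnmt above both neighbouring time points, held no such match in their windows. Because Gnmt, Pon1 and Cyp2e1 are known as liver genes, liver markers were read in the same arrays. The 6 liver markers named in the annotation, of 7 listed, summed to between 8.42 and 8.48 at E18, between 8.38 and 8.44 at E16 and between 8.28 and 8.55 at P2, and Alb, serum albumin, stayed between 5.43 and 6.02 in all arrays.

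Of the conjugating enzymes, Inmt, which methylates tryptamine and other amines, had the largest difference between Adult and E12 of the 38 genes, 8.73 (SE 0.50, adjusted p = 3.09e-09). Its arrays were at 5.98 and 5.60 at E12, 5.87 and 5.31 at E14, 9.10 and 6.69 at E16, 12.19 and 12.46 at E18, 11.48 and 11.56 at P2, 11.63 and 11.47 at P10 and 14.46 and 14.57 in Adult. The E16 replicates stood 2.42 apart, replicate 1 being the higher. Myl2, a heart ventricle gene, was at 12.63 in E16 replicate 1 and 8.84 in E16 replicate 2, and the part of adhering tissue in the Inmt value was not tested. E16 exceeded E14 by 2.31 (SE 0.50, adjusted p = 0.00657), which was 1.10 without E16 replicate 1, under the minimum of 1.2, and 3.52 without E16 replicate 2. Without E14 replicate 2 it was 2.03 and not called (adjusted p = 0.0555). E18 exceeded E16 by 4.43 (SE 0.50, adjusted p = 9.41e-06), which was 5.64 without E16 replicate 1 and 3.22 without E16 replicate 2. Sult1a1, a phenol sulfotransferase, read 5.55 and 5.36 at E14, 7.87 and 7.60 at E16, 10.83 and 10.96 at E18, 9.68 and 9.56 at P2, 9.42 and 9.35 at P10 and 10.52 and 10.53 in Adult, so that both Adult arrays lay above those of P10 and below those of E18. Sult1d1, a sulfotransferase that takes catecholamines in mouse, was at or below 4.16 in every array before Adult and at 8.57 and 8.18 in Adult. The difference of 4.23 (SE 0.13, adjusted p = 3.56e-10) from P10 was the largest of the 38 genes at that step, and since its earlier values lie near the lower end of the arrays, where the 10th percentile was 3.84, the size is uncertain.

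**Figure D4:**
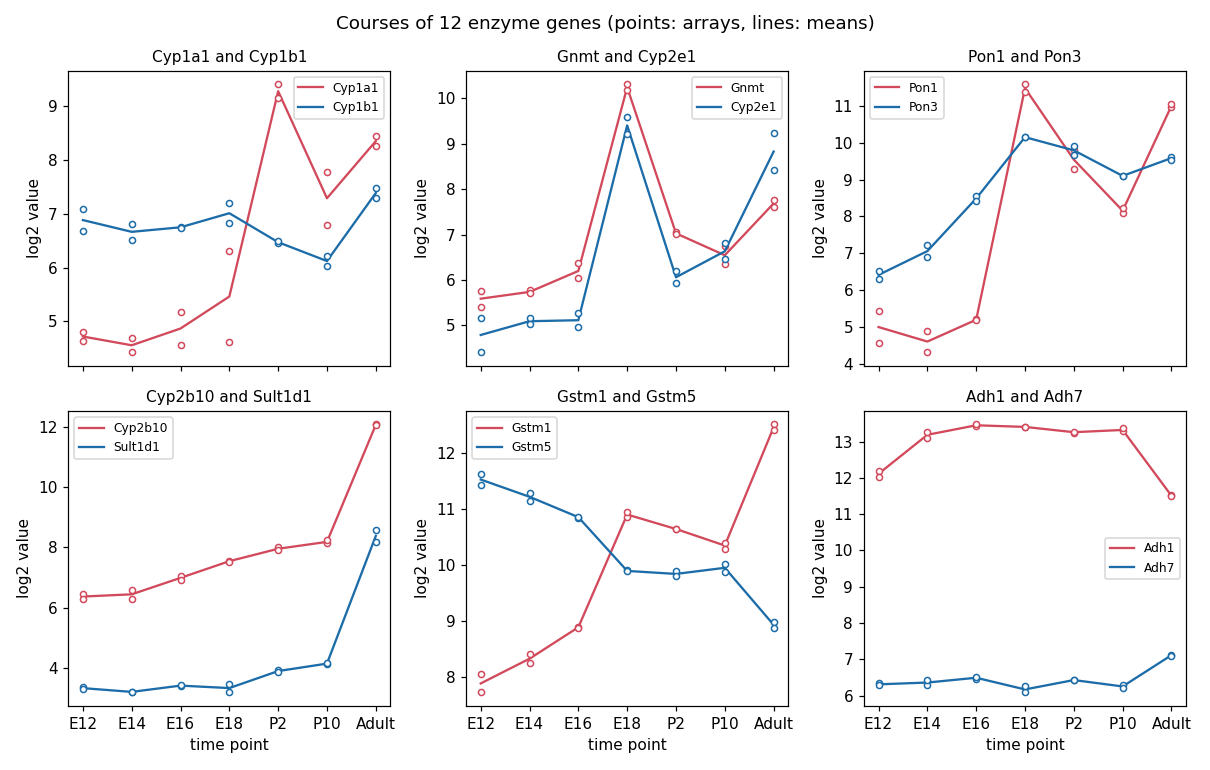
Log2 value (y axis) against time point (x axis) for 12 enzyme genes in 6 panels, with open points for single arrays and lines through the means of 2. Cyp1a1 stands highest at P2, Gnmt, Cyp2e1 and Pon1 at E18, Cyp2b10 and Sult1d1 in Adult, Gstm1 and Gstm5 cross, and Adh1 drops in Adult; each gene is on its own probe set, so only its course is comparable.

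Counted by step, the enzyme genes moved mainly between E16 and E18 and between P10 and Adult. In E18 against E16, 16 of 38 were higher (42.1%), against 4.11% of all genes, and 0 were lower, against 3.07%. In Adult against P10, again 16 were higher, against 2.04% of all genes, and 1 (Adh1) was lower, against 1.79%. In E14 against E12, 1 was higher (Gstt1), against 0.187%, and 0 were lower, against 0.0275%. In E16 against E14, 7 were higher (18.4%), against 1.14%, and 0 lower, against 0.275%. These 7 were Cyp4b1, Fmo1, Fmo2, Ces1d, Pon3, Inmt and Sult1a1. Around birth the direction was mixed, with 2 genes higher in P2 against E18 (Cyp1a1 and Gsta3), against 0.539% of all genes, and 5 lower (Cyp2e1, Fmo2, Gnmt, Pon1 and Sult1a1; 13.2%), against 0.775%. In P10 against P2, 0 were higher and 2 lower (Cyp1a1 and Pon1), against 0.264% in each direction. Without P2 replicate 1 the lower count of that step was 0, and without P2 replicate 2 or P10 replicate 1 it was 1.

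**Figure D5:**
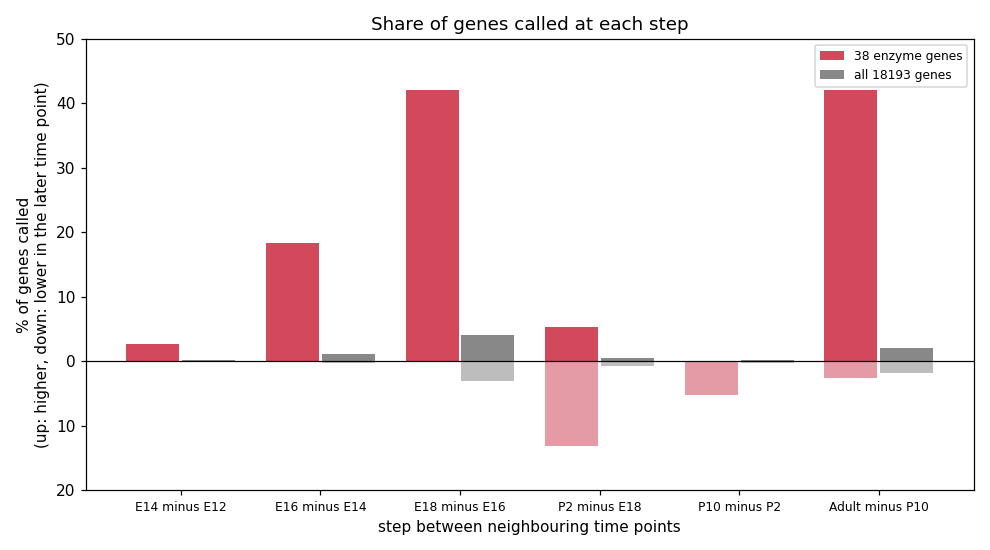
Percent of genes called (y axis, higher in the later time point upwards, lower downwards) at each step between neighbouring time points (x axis), for the 38 enzyme genes (red) and all 18193 genes (grey). The enzyme genes reach 42.1% higher at the steps E18 minus E16 and Adult minus P10.

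Adult was also set against E18, the last time point before birth. Here 14 enzyme genes were higher (36.8%), against 2.94% of all genes, and 2 were lower (Adh1 and Gnmt), against 2%. The largest differences were those of Sult1d1 with 5.05 (SE 0.13, adjusted p = 2.02e-11), Gsta3 with 4.85 (SE 0.22, adjusted p = 2.92e-09), Cyp2b10 with 4.52 (SE 0.11, adjusted p = 2.02e-11) and Cyp1a1 with 2.89 (SE 0.42, adjusted p = 0.000114). For Fmo2 the same difference was 0.45 (95% confidence interval 0.03 to 0.87), for Pon1 -0.48 (95% confidence interval -1.01 to 0.05) and for Cyp2e1 -0.58 (95% confidence interval -1.16 to 0.00), none of which was called. Of the 38 genes, 25 had their highest mean in Adult and 5 at E18 (Cyp2e1, Pon1, Pon3, Gnmt and Sult1a1). Another 2 each had it at E12 (Cyp7b1 and Gstm5), E16 (Adh1 and Nqo1), P2 (Cyp1a1 and Mgst3) and P10 (Cyp2j6 and Gstt1). Of all 18193 genes, 5070 had it in Adult, 2541 at E18 and 3845 at E12. The others were 1754 at E14, 1499 at E16, 1168 at P2 and 2316 at P10. A highest mean at E18 was thus no more frequent among the enzyme genes than among all genes. The comparisons share arrays, so their lists are not independent of each other.

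Other genes of the same families and of supporting pathways were read in Adult against E12 as lists by symbol. Over all genes, 11.5% were higher and 9.84% lower in this comparison, with a median difference of 0.08. Of 46 other genes of the Cyp1 to Cyp4 families, 3 were higher (6.52%) and 0 lower, with a median difference of 0.24, and 5 had a mean above 7. The 3 higher genes were Cyp2f2, the club cell P450 that activates naphthalene, by 9.20 (SE 0.31, adjusted p = 1.89e-11), Cyp4v3 by 3.96 (SE 0.13, adjusted p = 1.05e-11) and Cyp4f18 by 2.97 (SE 0.14, adjusted p = 3.35e-10). The value of Cyp2f2 was the highest of that comparison among the 18193 genes. Of 12 other glutathione transferase genes, 3 were higher (25%) and 0 lower, with a median difference of 0.89, Gsta2 by 4.17 (SE 0.19, adjusted p = 2.29e-10) the most. Aldehyde dehydrogenases went both ways, with 5 of 19 higher (26.3%) and 4 lower (21.1%) and a median difference of 0.15. Aldh1a1, a retinal dehydrogenase, was higher by 5.05 (SE 0.13, adjusted p = 2.3e-12), whereas Aldh18a1, of proline synthesis, had a difference of -2.58 (SE 0.14, adjusted p = 1.64e-09) and Aldh1a2, the retinal dehydrogenase of the embryo, of -1.69 (SE 0.16, adjusted p = 4.68e-07). Among 12 other carboxylesterases 2 were higher (16.7%) and 0 lower, with a median difference of 0.78, and among 11 other sulfotransferases and 10 UDP-glucuronosyltransferases 0 were called in either direction. None of the 10 glucuronosyltransferase genes had a mean above 7.

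Among genes that regulate or supply these enzymes, a minority were higher in Adult than at E12. The share of all genes called higher in this comparison was 11.5%, and the lists are short. Of 14 regulators 4 were higher (28.6%) and 0 lower, with a median difference of 0.24, namely Cebpa, Ahr, Nr3c1 and Cebpb. Cebpa, a transcription factor of lung epithelium and liver, was higher by 3.73 (SE 0.14, adjusted p = 4.36e-11). Nr3c1, the glucocorticoid receptor, was higher by 1.38 (SE 0.09, adjusted p = 1.72e-08) and Cebpb by 1.30 (SE 0.11, adjusted p = 2.04e-07). Cebpa was also called in E18 against E16, by 2.00 (SE 0.14, adjusted p = 9.91e-08). Nfe2l2, which encodes Nrf2, differed by 0.99 (SE 0.09, adjusted p = 3.64e-07), under the minimum of 1.2. Of 9 genes for electron donors and haem, 3 were higher (33.3%), with a median difference of 0.76, among them Alas1, the first enzyme of haem synthesis, by 2.19 (SE 0.11, adjusted p = 7.6e-10). Of 7 glutathione supply genes 2 were higher (28.6%), with a median difference of 0.76, among them Gclc, which makes the glutathione precursor, by 1.33 (SE 0.09, adjusted p = 1.31e-08). Of 8 export pump genes 3 were higher (37.5%), with a median difference of 0.46, led by Abcc3 with 3.25 (SE 0.15, adjusted p = 2.62e-10). In each of these lists 0 were lower, against 9.84% of all genes.

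Summed markers of several lung cell types were also higher in Adult than at E12, though not all along the same course. The 4 club cell markers, of which Cyp2f2 is itself a P450, summed to between 8.96 and 10.03 at E12, 9.86 and 10.50 at E14, 12.89 and 13.40 at E16, 15.86 and 15.88 at P2, and 16.16 and 16.30 in Adult on the log2 scale, with 15.26 in both arrays at E18. The 5 of 6 alveolar type II markers named in the annotation summed to between 11.26 and 11.36 at E12, 15.79 and 15.80 at E18, and 16.18 in both Adult arrays. The 5 alveolar type I markers stood between 10.32 and 10.42 at E12, 15.06 and 15.10 at E18, and 15.49 and 15.51 in Adult, and the 4 endothelial markers between 10.70 and 10.79 at E12, 12.67 and 12.69 at E18, and 13.52 and 13.62 in Adult.

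The 3 ciliated cell markers stood between 7.99 and 8.09 at E12, 7.73 and 7.84 at E14, and 9.02 and 9.11 at E16. They lay between 9.77 and 9.87 at E18, 9.05 and 9.15 at P2, 8.41 and 8.45 at P10, and 9.53 and 9.76 in Adult. They were thus high at E18, lower at P2 and P10 and higher again in Adult. That order was also seen in the means of Fmo2, Aox3, Pon1, Gstm1, Gstt3, Aldh2 and Cyp2e1. How many of all genes have it was not counted. It was not particular to ciliated markers. Abca3, an alveolar type II marker, read 12.09 and 12.01 at E18, 11.63 and 11.60 at P2, and 11.80 and 11.84 in Adult, unlike the sum of its list. The alveolar type I sums were near their E18 level at P2 (15.02 and 15.03) and P10 (15.04 and 15.07). The 4 macrophage markers stood between 9.49 and 9.57 at E12, 9.39 and 9.49 at E14, 10.39 and 10.80 at E18, 11.27 and 11.53 at P2, 11.13 and 11.15 at P10, and 13.07 and 13.16 in Adult, with 9.28 in both arrays at E16. Among them Chil3 read 12.76 and 12.84 in Adult against 10.17 and 10.43 at P10, Cd68 9.07 and 9.23 in Adult against 8.41 and 7.94 at P10, Mrc1 9.74 and 9.95 in Adult against 9.11 and 8.80 at P10, and Marco 8.30 and 7.82 in Adult against 7.81 and 7.40 at P10. Chil3 had the largest of these 4 distances. Markers of neighbouring tissues and of blood were read in the same way. The 5 heart markers stood between 8.76 and 9.0 at E12, 8.93 and 9.45 at E14, 10.93 and 13.70 at E16, 11.75 and 12.03 at E18, 12.72 and 12.99 at P2, 11.54 and 11.84 at P10, and 12.56 and 12.77 in Adult. The 4 skeletal muscle markers lay between 7.83 and 10.0 over all arrays, the 4 thymus markers between 7.85 and 8.89, the 3 oesophagus markers between 7.20 and 7.53, and the 2 of 3 red blood cell markers named in the annotation between 8.30 and 11.30. Of the 5 fat markers listed, 3 were named, and Adipoq among them read 7.72 and 6.74 in Adult against 3.76 and 3.55 at P10. The part of these cell types and tissues in the enzyme values was not tested.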

How the data were processed

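RNA of pooled mouse lungs at 7 time points had been measured on 14 Affymetrix arrays (the array labels name biotin labelling of total RNA). The deposited log2 values were taken unchanged. For their making, the study's methods name Partek 6.4 with Robust Multichip Average, and the processing notes of the submitters name Partek 6.4 with GCRMA, so which of them the authors used is not settled. A genome build for the probe sets is not given in the sources used here. Of 45101 probe sets, 64 were controls and were not used. The platform annotation gave the gene names (34945 probe sets with 1 symbol, 932 with several, 9160 with none).

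One mean per time point was fitted to 45037 probe sets with limma 3.58.1 in R 4.3.3 (residual df 7, prior df 6.04), with Benjamini-Hochberg adjustment over all of them for the F test and for each of 8 contrasts. Backgrounds were counted over 18193 genes. Array number limits the precision, since 2 arrays stand behind each mean. The enzyme genes and the other lists were chosen with earlier results of these data known. All enzyme genes are named. Values of single arrays, at some or all time points, are given for those with the largest differences between Adult and E12 in a class. They are also given for those highest at other time points and for close relatives. In the other lists the genes with the largest difference and some that were not called are named. Pathway lists hold other members of the same families, regulators, electron donors and haem, glutathione supply and export pumps, and marker lists hold lung cell types, liver, heart, fat, muscle, thymus, oesophagus, red blood cells and Y-linked genes. RefSeq promoter windows (GRCm38.p6) were searched on both strands for GCGTG and TGACNNNGC. The fit was tested on simulated data. Alternatives were another representative probe set, other filters, quantile normalization, median centring, the methods' ANOVA, a spline with 3 degrees of freedom, a replicate block, fewer time points, and leaving out arrays.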

Additional observations from a re-analysis of the deposited data

How the results depend on the processing

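The 2 arrays per time point limit each comparison, values near the lower end of the arrays understate or blur changes, and 1 probe set stands for a gene. Counts refer to the 38 enzyme genes. The number dynamic was 31 and went to 28 with the spline, 26 without the Adult arrays, 26 without the 3 arrays low in Y-linked genes, and 31 without the E18 or the E16 arrays (the last 4 chosen after seeing the data). Replicate numbers share only a number, since same-numbered arrays deviated from their time-point means with correlations between -0.27 and 0.12 over 21 pairs of time points (median -0.03). With a replicate block the counts were 31 dynamic and 26 higher and 1 lower in Adult against E12, and no count of the other comparisons changed. With the methods' ANOVA, 0 were higher in E14 against E12 and 0 lower in P10 against P2. Inmt in E16 against E14 also lost the threshold with that ANOVA (adjusted p = 0.0698). The same held when only the time points compared were fitted (adjusted p = 0.0616). Without the filter on dim probe sets 2 were higher in E14 against E12. With a higher mean above 8, 0 were higher in E14 against E12 and 4 in E16 against E14. With the mean of all probe sets of a gene, 1 was higher in P2 against E18. Without a minimum difference the counts were 3 lower in Adult against E12, 6 higher in E14 against E12, 15 higher and 2 lower in E16 against E14, 3 lower in E18 against E16, 6 higher and 11 lower in P2 against E18, 3 higher and 7 lower in P10 against P2, 30 higher and 2 lower in Adult against P10, and 23 higher and 5 lower in Adult against E18. Leaving out each array in turn, with the lone array of a time point assumed to vary like the others, gave 0 to 1 higher in E14 against E12 (0 without E14 replicate 2) and 0 to 2 lower in P10 against P2. For 88 single-gene differences under 1848 alternatives, 1827 kept their direction and side of the adjusted p threshold, 14 lost the threshold, 7 gained it and 0 reversed. Quantile normalization and median centring moved the median of all genes by at most 0.05.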

Other observations

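Scgb1a1, the main secreted protein of club cells, did not follow the club cell list early in the course. Its arrays read 9.59 and 8.10 at E12, 4.21 and 4.19 at E14, 11.77 and 8.90 at E16 and 13.95 and 13.96 at E18. None of the enzyme genes was called lower in E14 against E12, the step at which Scgb1a1 was lower. Only 0.0275% of all genes were called lower there, so this count does not set the enzyme genes apart. At E16 replicate 1 had the higher values of Scgb1a1, Inmt and Myl2.

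The other probe sets of the enzyme genes were read as well. There were 29 of them for 16 genes, and in each of the 19 with a mean above 7 the difference between Adult and E12 had the sign of the probe set used, though its size could differ.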
